A study of Mus musculus with 6 samples.

Results

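The miRNAs described here are the miR-466, miR-467, miR-669 and miR-297 families of the mouse, most of whose hairpins lie in the gene Sfmbt2. All entries with such a name were taken, whatever their letter or arm, which gave 47 of the 1081 entries of the deposited table. Entries with identical values were counted once, since they may rest on the same reads: 14 entries formed 7 identical pairs, which left 40 members. Small RNA was sequenced from the kidney inner medulla of 1-month-old mice, with 3 control libraries and 3 libraries from DicerAQP2Cre+ mice. The latter lack Dicer1 where aquaporin-2 is expressed, that is in principal cells of the collecting duct, which take up water through this channel. Other cells of the inner medulla, such as interstitial, endothelial and blood cells, are in the same sample and are not the target of the deletion. The labels give neither the alleles of the controls nor the strain. Loss of Dicer1 was not checked here, since its mRNA is not part of such libraries. The series design counts 3 mice in each group, which is the number of libraries. The assignment of columns to DicerAQP2Cre+ mice was read from short column names, and every direction below rests on that reading. In bulk tissue, fewer cells of a type and less RNA per cell cannot be told apart.

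Sfmbt2 encodes a polycomb group protein and is imprinted, with expression from the paternal copy in extraembryonic tissue. A long array of repeated miRNA hairpins lies in its introns in mouse and rat. These miRNAs are best known from the placenta and from early embryonic cells, and they are processed like most others: Drosha frees a hairpin from the host transcript, Dicer removes its loop, and 1 of the 2 arms, named 5p and 3p, is usually kept by Argonaute. The seed, bases 2 to 8 of the mature miRNA, largely sets which transcripts are bound.

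The mature sequences of 4 members, which hold runs of alternating UG or CA, are printed to show what such repeats look like within a family name. They are the 4 of the 56 member names for which the RefSeq table (GRCm38.p6) held a sequence. The seed is in capitals.
miR-466k: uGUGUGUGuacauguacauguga
miR-466j: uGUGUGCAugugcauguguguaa
miR-466q: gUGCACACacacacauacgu
miR-467f: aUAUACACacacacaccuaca
The longest stretch of one alternating dinucleotide was 9 bases in miR-466k, 7 in miR-466j and 12 in both miR-466q and miR-467f. Either ACACAC or its reverse complement GUGUGU was present in all 4, against 28 of 1679 mature names in the RefSeq table (1.67%). The hairpins of these 4 lie outside Sfmbt2, so no sequence of the array itself is shown. The 4 seeds differed from each other, and no other entry of the table with a RefSeq sequence shared any of them. Mir466q lies within Tnik on its strand, and Mir467f lies within Fxr2 on the other strand. Together these 4 members had 11 reads in the 6 libraries. miR-466q had 5 reads, miR-466k 3, miR-467f 2 and miR-466j 1. Their highest value in any library was 1.94 normalized reads, that is reads divided by the library's size factor, and none was tested.

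The GENCODE M21 annotation of GRCm38 names 81 hairpins of the 4 families. Of these, 71 lie inside Sfmbt2, all on its strand and 0 overlapping an exon, and 10 lie elsewhere. Inside the gene, 29 hairpins belong to miR-669, 23 to miR-466, 14 to miR-467 and 5 to miR-297. Several mature names come from many copies: miR-669a-5p with miR-669p-5p could derive from 14 hairpins and miR-467a-5p with miR-467b-5p from 11. Their reads cannot be assigned to a single copy.

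The 4 families made up a small part of the inner medulla's miRNA reads. Over all 6 libraries the 40 members had 3953 reads, in libraries of 2934851 to 7614853 reads. In controls they took 0.0119 ± 0.00244% of reads, and in DicerAQP2Cre+ samples 0.0105 ± 0.00194% (SD, n = 3 each). 2 entries carried 59.6% of the members' reads. These were miR-467d-5p and miR-669c-5p, at ranks 178 and 181 of all 1081 entries by mean level. Each comes from a single hairpin, and the hairpins are near neighbours: Mir467d is number 54 and Mir669c number 57 of the 71 along Sfmbt2, with Mir466 and Mir297c between them. The next members were miR-669a-3p with miR-669o-3p (rank 247) and miR-669a-5p with miR-669p-5p (rank 289), both with many copies. Number of copies and mean level had a Spearman correlation of 0.39 over the 17 tested members, which share libraries and in part hairpins. All mature miRNAs are of similar length, so levels were compared as normalized reads without a length correction.

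**Figure D1:**
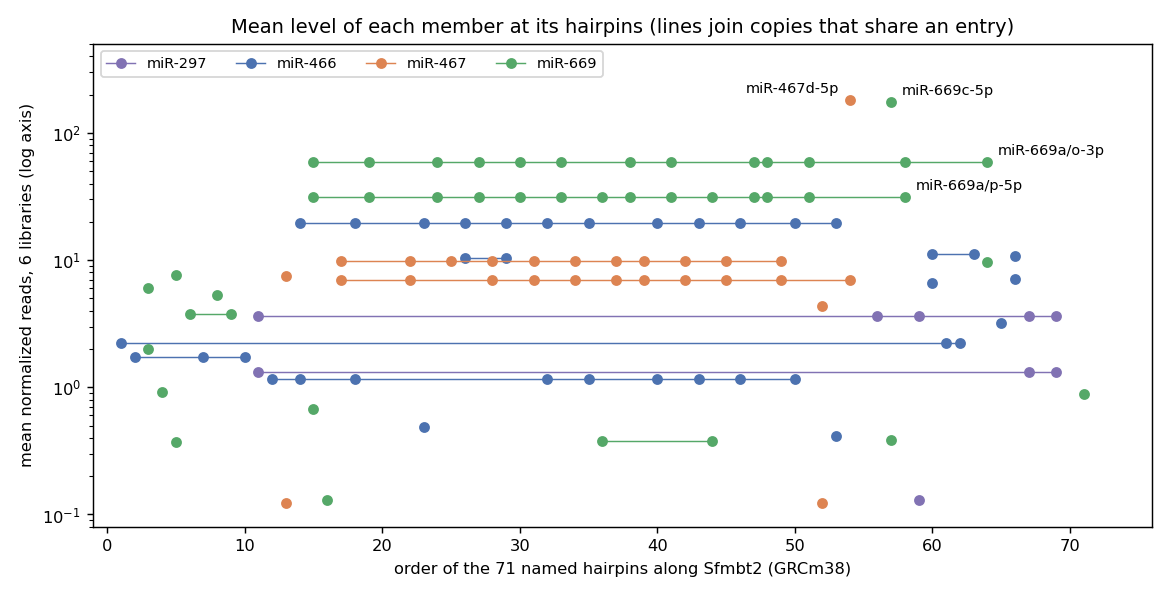
Mean normalized reads over 6 libraries (log axis) of each member with a hairpin matched by name inside Sfmbt2. Each is drawn at every such hairpin, in the order of the 71 named hairpins along Sfmbt2 in GRCm38. Hairpins outside Sfmbt2 are not drawn. Lines join copies that share an entry; miR-467d-5p and miR-669c-5p, at hairpins 54 and 57, stand above all other members.

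By family, miR-669 held 50.6% of the members' reads, miR-467 35.7%, miR-466 12.7% and miR-297 0.936%. The 5p arms held 80.3% and the 3p arms 18.5%. Below the filter were 23 members, which had 31 reads or fewer each over all libraries and together 5.24% of the members' reads. All 3 miR-297 members were among these, and the highest miR-297 value in any library was 6.92 normalized reads. In 5 members reads appeared in 1 library only. miR-467e-5p was the highest of the 23, with 6.92, 4.72 and 1.94 normalized reads in controls and 6.66, 1.96 and 4.09 in DicerAQP2Cre+ libraries. miR-466g had 2.31, 3.93 and 0.968 against 8.14, 3.92 and 0. The shared 3p entry of miR-297a, miR-297b and miR-297c, which could come from 5 hairpins in Sfmbt2 and 1 elsewhere, had 6.92, 3.14 and 2.90 against 5.92, 1.96 and 1.02. These 3 overlapped between genotypes. Where a member had 0 reads, the library still allows 3 reads of it, worth 2.22 normalized reads in the deepest library and 5.88 in the least deep. Such limits and the intervals on read shares below count sampling of reads alone, since PCR duplicates were not marked.

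The comparison of interest was whether the cluster's level differs when principal cells lack Dicer1. Summed over the 40 members, it did not separate the genotypes. The controls had sums of 670.6, 668.9 and 434.5 normalized reads, and the DicerAQP2Cre+ libraries had 717, 533 and 552. Control replicate 3 was the lowest and DicerAQP2Cre+ replicate 1 the highest, and the groups overlapped. The means were 591 ± 136 and 601 ± 101 (SD, n = 3 each), a ratio of 1.02. As shares of each library the order of the means turned, with a log2 ratio of -0.18 in place of 0.02. Both are smaller in size than 0.30, the SD between replicates of the log2 sum of normalized reads. The same SD for the shares was not computed. miR-669 went from 286 ± 71.6 to 323 ± 44.0, miR-467 from 222.9 ± 59.4 to 198 ± 35.6, and miR-466 from 77.2 ± 14.1 to 74.9 ± 20.2 normalized reads. In each of these families the genotypes overlapped. As a share of all reads the miR-669 means stood in the other order, at 0.00574 ± 0.00128% in controls and 0.00564 ± 0.000859% in DicerAQP2Cre+ libraries. No test was run on these sums.

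**Figure D2:**
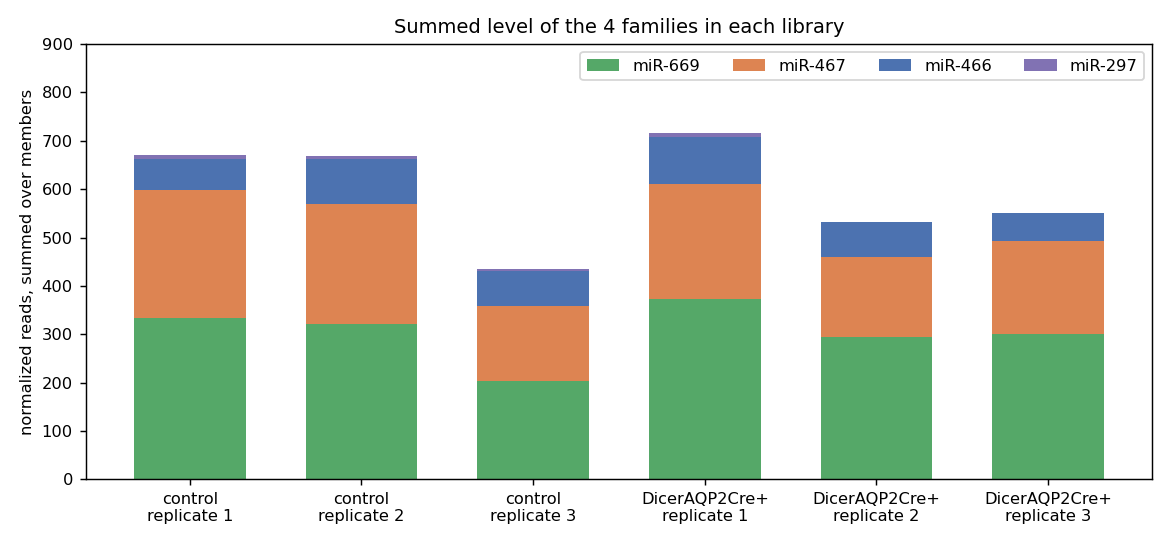
Normalized reads summed over the members of each family (stacked bars) in each library. The totals run from 434.5 to 670.6 in controls and from 533 to 717 in DicerAQP2Cre+ libraries, so the groups overlap.

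Of the 40 members, 17 had a mean of at least 5 normalized reads and were tested with all other such entries by limma on log2(value + 1). None of the 17 passed a Benjamini-Hochberg adjusted p of 0.05 in either direction. Over all 461 entries tested, 4.99% were lower and 3.47% higher, together 8.46%. At an unadjusted p under 0.05 there were 2 members, 1 lower and 1 higher, against 28% of all entries. edgeR on recovered reads called 0 of the 17, against 9.11% of all entries. DESeq2 also called 0, against 16.2% of the 371 entries to which it gave an adjusted p, and it gave none to 9 of the 17. Of the fitted log2 fold changes, 8 were below 0 and 9 above. Their median was 0.16, against -0.01 for all tested entries. With libraries set to equal totals the members' median was -0.05 and that of all entries -0.21, so the sign of the members' median depends on the scaling. On both scales it was above the median of all entries. The SD between replicates of the members' own median was 0.31 on the deposited scale. The spread of the gap between the 2 medians was not computed.

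Most members had few reads. 13 of the 17 members had a mean between 5 and 20 normalized reads, a range in which limma called 0 of all 140 entries tested, and edgeR and DESeq2 1 each. DESeq2 gave no adjusted p to 90 of these 140. At an unadjusted limma p under 0.05 there were 10 lower and 16 higher in that range. In 10 of the 17 the spread within groups was less than 1.5 times the spread that counting alone would give. The median standard error of a log2 fold change was 0.48 over these members and 0.32 over all entries. The limma 95% interval held 0 for 15 of the 17, and the other 2 were the arms of miR-466h.

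**Figure D3:**
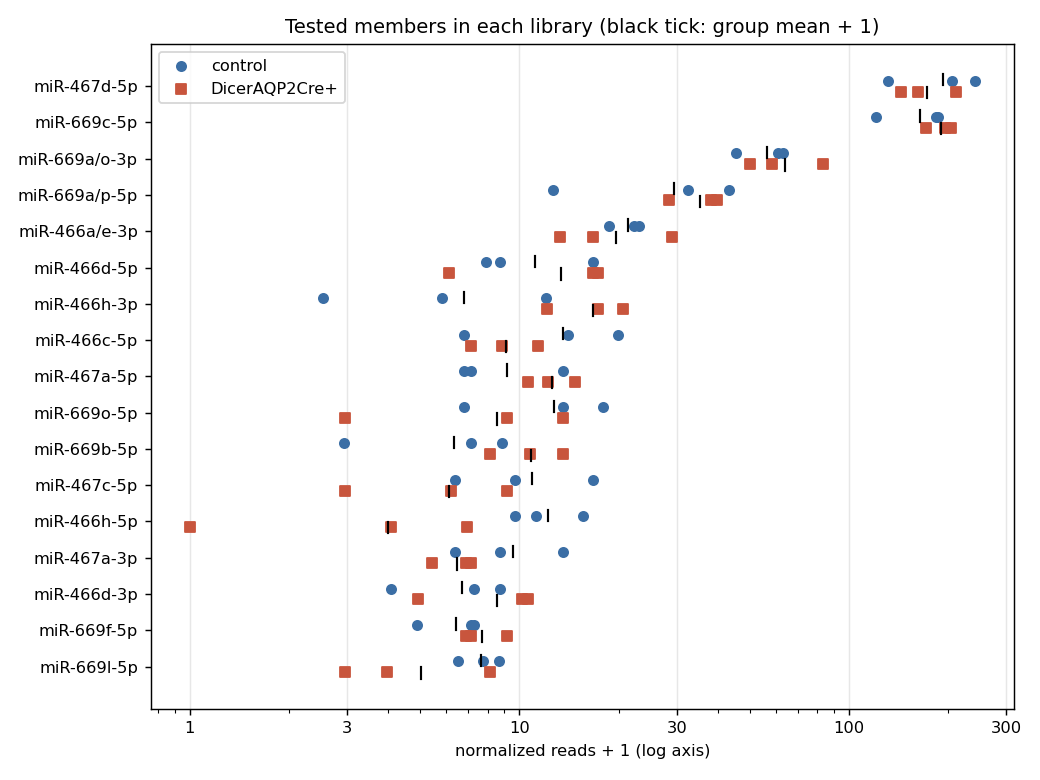
Normalized reads + 1 (log axis) of the 17 tested members in each library, with control (circles) and DicerAQP2Cre+ (squares) and the mean of each group as a black tick. The groups overlap for all members except miR-466h-3p and miR-466h-5p.

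miR-467d-5p, the most abundant member, had 239.9, 204 and 131 normalized reads in control replicates 1 to 3. It had 209, 143.1 and 161 in DicerAQP2Cre+ replicates 1 to 3. Control replicate 1 was the highest and control replicate 3 the lowest of all 6, so the DicerAQP2Cre+ values lay within the control range. Its log2 fold change of value + 1 was -0.13 ± 0.29 (95% interval -0.77 to 0.50, limma adjusted p = 0.793). The ± on this and every later log2 fold change is the limma standard error. The interval thus allows a fall by up to 0.77 and a rise of up to 0.50 on the log2 scale.

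miR-669c-5p, which has been linked to ageing of the mouse liver, stood at 185, 183 and 120.0 normalized reads in the controls. The DicerAQP2Cre+ libraries had 203, 194.001 and 169.6. Control replicate 3 was again the lowest, and the groups overlapped. The log2 fold change was 0.24 ± 0.25 (95% interval -0.33 to 0.80, limma adjusted p = 0.598).

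The miR-669a arms came next. The 3p entry, shared with miR-669o-3p, had 60.0, 62.1 and 44.5 normalized reads in controls and 82.1, 49.0 and 57.2 in DicerAQP2Cre+ libraries (log2 fold change 0.16 ± 0.29, limma adjusted p = 0.774). The 5p entry, shared with miR-669p-5p, had 42.3, 31.4 and 11.6 in controls and 37.0, 27.4 and 38.8 in DicerAQP2Cre+ libraries (0.43 ± 0.44, limma adjusted p = 0.583). Both overlapped between genotypes, with control replicate 3 lowest in each. miR-669a has been described as a repressor of MyoD in cardiac progenitor cells.

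The other tested miR-669 members were all 5p arms with means under 10 normalized reads. miR-669o-5p had 16.9, 12.6 and 5.81 in controls against 12.6, 1.96 and 8.17 in DicerAQP2Cre+ libraries (log2 fold change -0.72 ± 0.62, limma adjusted p = 0.478). miR-669b-5p had 6.15, 7.86 and 1.94 against 12.6, 9.80 and 7.15 (0.89 ± 0.53, limma adjusted p = 0.297). miR-669l-5p had 7.69, 5.502 and 6.77 against 2.96, 1.96 and 7.15 (-0.73 ± 0.53, limma adjusted p = 0.386). Each overlapped between genotypes, and the lowest value of each rests on a few reads. miR-669f-5p had 6.15, 6.29 and 3.87 in controls against 8.14, 5.88 and 6.13, with a log2 fold change of 0.27.

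Among the miR-467 members beside miR-467d-5p, the entry of miR-467a-5p and miR-467b-5p had 6.15, 12.6 and 5.81 normalized reads in controls. It had 9.62, 13.7 and 11.2 in DicerAQP2Cre+ libraries (log2 fold change 0.51 ± 0.43, limma adjusted p = 0.467). miR-467c-5p had 5.38, 15.7 and 8.71 against 5.18, 1.96 and 8.17 (-0.88 ± 0.57, limma adjusted p = 0.336). The 3p values of miR-467a and miR-467d were identical, at 5.38, 12.6 and 7.74 against 4.44, 5.88 and 6.13, with a log2 fold change of -0.50. In these 3 entries the genotypes overlapped, and in all 3 control replicate 2 was the highest control.

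The miR-466 family had 6 tested members. The most abundant was the shared 3p entry of miR-466a and miR-466e, which held the same values as that of miR-466b, miR-466c and miR-466p. It had 17.7, 22.0 and 21.3 normalized reads in controls against 28.1, 15.7 and 12.3 in DicerAQP2Cre+ libraries (log2 fold change -0.19 ± 0.38, limma adjusted p = 0.776). The DicerAQP2Cre+ libraries held both the highest and the lowest value. miR-466d-5p, identical to miR-466n-5p, had 6.92, 15.7 and 7.74 against 16.3, 15.7 and 5.11 (0.20 ± 0.52, limma adjusted p = 0.814). miR-466c-5p had 13.1, 18.9 and 5.81 against 10.4, 7.84 and 6.13 (-0.47 ± 0.48, limma adjusted p = 0.576). miR-466d-3p had 3.08, 6.29 and 7.74 against 9.62, 3.92 and 9.19, with a log2 fold change of 0.35. None of these 3 separated the genotypes.

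**Figure D4:**
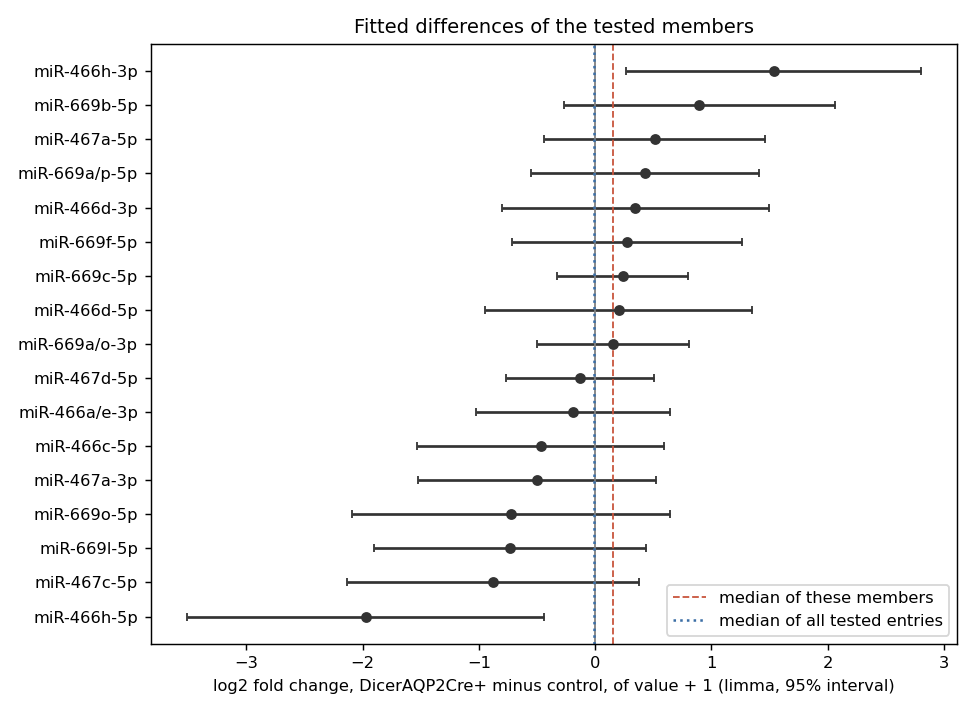
Log2 fold change of value + 1 (DicerAQP2Cre+ minus control) of the 17 tested members with its limma 95% interval, beside the median of these members (dashed, 0.16) and of all tested entries (dotted, -0.01). The intervals of miR-466h-5p, at -1.97, and miR-466h-3p, at 1.53, lie to either side of 0 without holding it; neither passed adjustment.

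The arms of miR-466h gave the lowest and the highest log2 fold change of the 17 with all libraries. miR-466h-5p has been described as promoting apoptosis in nutrient-deprived cells. It had 14.6, 10.2 and 8.71 normalized reads in controls, from 19, 13 and 9 reads. The DicerAQP2Cre+ libraries had 5.92, 0 and 3.06, from 8, 0 and 3 reads. Every DicerAQP2Cre+ value was below every control value. The nearest were control replicate 3 at 8.71 (9 reads) and DicerAQP2Cre+ replicate 1 at 5.92 (8 reads, in a deeper library). The means were 11.2 ± 3.07 and 2.99 ± 2.96 (SD, n = 3 each). The log2 fold change was -1.97 ± 0.69 (95% interval -3.51 to -0.44, limma adjusted p = 0.102). It did not pass with all libraries. Its log2 fold change was -1.53 in edgeR (adjusted p = 0.127) and -1.66 in DESeq2, which gave no adjusted p. It passed in limma without DicerAQP2Cre+ replicate 1 (-2.57, adjusted p = 0.0479) and without DicerAQP2Cre+ replicate 3 (-2.18, adjusted p = 0.0469). Without DicerAQP2Cre+ replicate 2, the library with 0 reads and the least depth, the log2 fold change was -1.17 (limma adjusted p = 0.192). Over the 14 alternatives that gave one, its adjusted p, in limma or edgeR, ran from 0.0469 to 0.263. With all libraries thinned to the least deep, miR-466h-5p fell below the filter and was not tested.

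miR-466h-3p, the other arm of the same hairpin, had 1.54, 11.005 and 4.84 normalized reads in controls, from 2, 14 and 5 reads. The DicerAQP2Cre+ libraries had 11.1, 19.6 and 16.3, from 15, 10 and 16 reads. The groups did not overlap, though control replicate 2 and DicerAQP2Cre+ replicate 1 were almost level. The means were 5.79 ± 4.81 and 15.7 ± 4.29 (SD, n = 3 each). The log2 fold change was 1.53 ± 0.57 (95% interval 0.27 to 2.80, limma adjusted p = 0.117), against 1.41 in edgeR and 1.44 in DESeq2. It was 0.96 without control replicate 1 (limma adjusted p = 0.292) and 0.87 with all libraries thinned to the least deep (limma adjusted p = 0.447). Over 16 alternatives its adjusted p, in limma, edgeR or DESeq2, ran from 0.0891 to 0.447. These 2 arms, 1 lower and 1 higher, were the tested members whose groups did not overlap. Among all tested entries 18% were lower without overlap and 15.6% higher, together 33.6%, and among those with means between 5 and 20 it was 22.9%.

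The same reads can be given as the 3p share of miR-466h, which restates the values of both arms and adds no separate evidence. In controls it was 9.52% (95% exact binomial interval 1.17 to 30.4), 51.9% (31.9 to 71.3) and 35.7% (12.8 to 64.9). In DicerAQP2Cre+ libraries it was 65.2% (42.7 to 83.6), 100% (69.2 to 100) and 84.2% (60.4 to 96.6). Every DicerAQP2Cre+ share was above every control share, though the binomial intervals of some control and DicerAQP2Cre+ libraries overlapped, as those of control replicate 2 and DicerAQP2Cre+ replicate 1 did. The mean share was 32.4 ± 21.4% and 83.1 ± 17.4% (SD, n = 3 each). miR-466h is described at this length because its values had been seen.

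**Figure D5:**
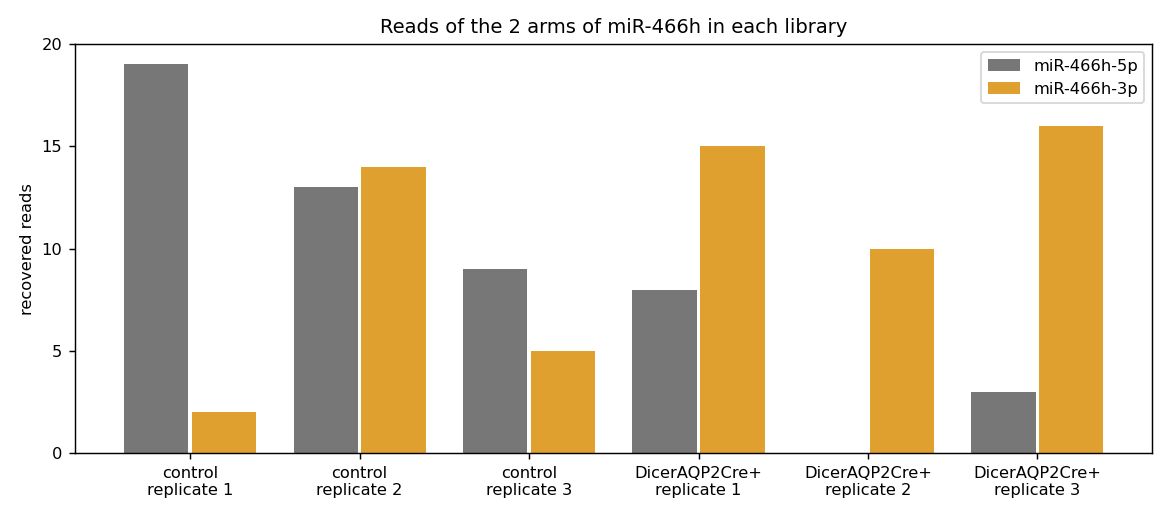
Recovered reads, not scaled for depth, of miR-466h-5p (grey) and miR-466h-3p (orange) in each library. The 5p arm had 9 to 19 reads in controls and 0 to 8 in DicerAQP2Cre+ libraries, and the 3p arm 2 to 14 and 10 to 16.

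Arm use was also compared in the other hairpins with entries for both arms. 12 hairpin names had at least 5 reads over both arms in every library, some of them sharing an entry for 1 arm. With 3 against 3 libraries an exact two-sided permutation p cannot fall below 0.1, and 3 of the 12 reached that value: miR-466h, miR-466b and miR-467a. The share of hairpins outside the 4 families that reach it was not computed, so nothing about the families is read from this count. After adjustment over the 12 each stood at 0.4. The 3p share of miR-467a was 46.7%, 50% and 57.1% in controls and 31.6%, 30% and 35.3% in DicerAQP2Cre+ libraries, so the order of the groups was the opposite of that of miR-466h. Its 3p values were identical to those of miR-467d, which had 1220 5p reads against 61 for miR-467a. The 3p reads could come from either, so this share need not show arm use of miR-467a. With the same 3p reads, the shares of miR-467d overlapped between genotypes (exact permutation p = 0.3). The 3p share of miR-466b was 95.8%, 93.3% and 84.6% against 97.4%, 100% and 100%, with 8 5p reads in all 6 libraries together. By name, the 3p share differed between members of the cluster. For miR-669c 0.263% of reads were 3p and for miR-467d 3.63%, while for miR-669a 65.4% were and for miR-466b 94.2%. Except for miR-669c, these shares use entries that other hairpins could also give, so they need not show the arm use of a single hairpin. The 3p reads of miR-466b could come from at least 12 hairpins and those of miR-467d from 11. The 12 include none for miR-466a, to which no hairpin was matched by name.

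Below the filter 2 members had values that did not overlap between genotypes, both lower in DicerAQP2Cre+ libraries. Of all 620 entries below the filter, 27 (4.35%) were lower without overlap. miR-669d-5p had 5.38, 3.93 and 5.81 normalized reads in controls against 3.70, 3.92 and 0. These rest on 7, 5 and 6 reads against 5, 2 and 0. The shared entry of miR-466b-5p and miR-466o-5p had 1, 2 and 4 reads against 1, 0 and 0. Its groups were apart only after scaling, as the lowest control and the highest DicerAQP2Cre+ library had 1 read each, at 0.769 and 0.740 normalized reads. In miR-669d-5p control replicate 2 and DicerAQP2Cre+ replicate 2 were nearly level. With 0 to 7 reads a library, neither member was tested, and no difference is read from these values.

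Other miRNA clusters known from germ cells, embryos and dividing cells were counted beside the 4 families. The X-linked rodent cluster, known from testis, had 5 entries in the table and 8 reads in all, with 0 entries tested. The early embryonic cluster of miR-290 to miR-295 had 4 entries and 15 reads, again with 0 tested. The miR-17, miR-20, miR-93 and miR-106 miRNAs, which promote cell cycle entry, had 7 tested entries of 11. None of the 7 was called by limma, edgeR or DESeq2, 1 was lower at an unadjusted limma p under 0.05, and the median log2 fold change was -0.22 (range -0.86 to 0.41). GENCODE M21 lists 48 further miRNA genes inside Sfmbt2, of which 0 carry a Mir name, so no other entry could be matched to the gene.

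Of the cell type markers, the epithelial (collecting duct), stromal and tubule lists held entries called by limma, and the other lists held none. The part of these cell types in the values above was not tested. The 9 entries of the epithelial miR-200 family summed to 17621 to 18745 normalized reads in controls and 7648 to 11584 in DicerAQP2Cre+ libraries, with 5 of 8 tested entries lower by limma. The 9 stromal entries summed to 23401 to 24725 and 27753 to 40289.5, with 2 of 8 tested entries higher. The 6 leukocyte entries summed to 12213 to 35248 and 15965 to 38139.6, and the 2 endothelial entries to 961 to 1229 and 830.0 to 1245, with 0 called in either list. Tubule entries, typical of the cortex, ran from 1306 to 1368 and 646 to 1145, with 1 of 3 tested entries lower. Of 3 tested erythroid entries 0 were called, and the sums ran from 84674 to 147282 and 66080 to 98792. Striated muscle entries stayed between 26.6 and 48.7, with 0 called of 1 tested. miR-124-3p, the neural marker, had 1 read in all.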

How the data were processed

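The authors deposited 1 table of signal values, which are normalized read counts: each column is reads per mature miRNA over a size factor. Per the submitters' processing notes, FastQC 0.11.3 and DESeq2 were used, with the genome build mm9. No aligner, counting tool or miRNA release is named in the labels. Every value (100%) was a whole multiple of its column's step to within 0.01 read, so whole reads were recovered. Hairpins were placed by the GRCm38 annotation, and no coordinates are printed because the builds differ. The 461 entries with a mean of at least 5 were fitted together in limma 3.58.1 under R 4.3.3, after log2(value + 1), using a variance trend, no replicate block, and two-sided p-values adjusted by Benjamini-Hochberg over all 461. Fold changes of low entries shift with the value added: that of miR-466h-5p was -2.34 with 0.5 and -1.07 with 5 in place of 1. For both arms of miR-466h, edgeR and DESeq2 gave smaller changes than limma. edgeR 4.0.16 (quasi-likelihood) and DESeq2 1.42.0 were run on recovered reads as alternatives. The limma, edgeR and DESeq2 fits were also run on simulated counts with the same dispersion for every entry, and that outcome is not given here. Replicates differed by more than sampling noise. Members and lists were chosen with earlier results of these data known. Named by rule were the 10 most abundant members, the 5 with the smallest limma p, the largest change each way, and called or non-overlapping members, and the other members named were chosen after their values were seen.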

Additional observations from a re-analysis of the deposited data

How the results depend on the processing

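Members called higher stayed at 0 in 19 alternatives, and members called lower at 0 in 17. With 1 library left out there were 0 to 1 lower members, the 1 being miR-466h-5p. The members' median stayed within 0.31 of its value in 18 alternatives (-0.10 to 0.25), and the summed level within the replicate spread in 9. Over all entries, the 23 lower and 16 higher became 48 lower with equal totals, 11 lower and 7 higher with no variance trend, 41 and 30 when an adjusted p of 0.1 was allowed, and 29 higher by DESeq2. Leaving out 1 library gave 0 to 62 lower (0 without control replicate 2 or 3, 62 without DicerAQP2Cre+ replicate 3) and 0 to 43 higher. The sign of the log2 fold change turned for 6 of the 14 tested members followed across settings, none of which passed in any; the cause was not tested. miR-669a-3p with miR-669o-3p had -0.053 with equal totals and -0.053 to 0.314 with a library left out. miR-669o-5p had 0.145 when libraries were thinned to the least deep, an alternative added with the data in view. With a library left out, miR-466a-3p with miR-466e-3p ran from -0.514 to 0.053, miR-466d-5p from -0.057 to 0.693, miR-467d-5p from -0.384 to 0.052 and miR-669a-5p with miR-669p-5p from -0.097 to 0.792. With a replicate block 0 members and 18 lower and 14 higher entries were called. Deviations of same-numbered libraries correlated at -0.06, 0.01 and 0.06, so the numbers were not taken as pairs.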

Other observations

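The ratio of miR-669c-5p to miR-467d-5p, the 2 most abundant members, was chosen after their values were seen. It was 0.769, 0.900 and 0.919 in controls and 0.968, 1.36 and 1.05 in DicerAQP2Cre+ libraries. Because the pair was picked for its values, no test is given, and neither miRNA passed alone.

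Outside the 4 families, 11 entries of the table held ACACAC or GUGUGU in their RefSeq sequence, and 2 were abundant enough to test. miR-672-5p had 76.9, 87.3 and 84.2 normalized reads in controls against 126.5, 137 and 99.1 in DicerAQP2Cre+ libraries. The groups did not overlap, and its log2 fold change was 0.53 ± 0.25 (limma adjusted p = 0.192). miR-574-3p had 1384, 1416 and 1220 against 2264, 1625 and 998.1, with overlap (log2 fold change 0.21, limma adjusted p = 0.695).

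In 2 of the 7 identical pairs, miR-297b-5p with miR-669k-5p and miR-467c-3p with miR-467e-3p, the shared value was a single read in 1 library. Identity of such rows is weak evidence that they rest on the same reads.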
